A study of Mus musculus with 8 samples.

Results

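The genes described here are 7 that antibody-secreting plasma cells use: Sdc1, Prdm1, Irf4, Xbp1, Derl3, Mzb1 and Jchain. They are 7 of the 21827 protein-coding genes considered, and they were listed by name for what they do, with earlier results of these data known. Each was followed at its promoter, taken as the 1000 bp before and the 200 bp after a transcription start site (TSS), and within 50 kb of its most upstream protein-coding TSS. The samples were spleen nuclei of C57BL/6J mice of both sexes, 8 weeks old, from tissue fixed in formalin for 16 h and embedded in paraffin (FFPE). The nuclei were profiled by ATAC-seq, in which the Tn5 transposase cuts accessible DNA, and the DNA was then purified with reverse crosslinking (+RV) or without it (−RV). All samples share the mouse strain and the fixation. Within each assay the conditions also share the tagmentation, which took place before the nuclei were divided between them. Bulk and single-cell nuclei were tagmented separately, and the single-cell nuclei also went through barcode ligation before that division. Bulk ATAC-seq had 2 libraries per condition, called technical replicates by the study, so differences between them measure only the spread between such libraries. Single-cell ATAC-seq also had 2 labelled samples per condition, but their fragments come merged as 1 set for +RV and 1 for −RV and allow no test between conditions.

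Plasma cells arise from activated B cells. Irf4 and Prdm1 encode the transcription factors IRF4 and BLIMP1, which start and fix the plasma cell programme and silence B cell identity genes. Xbp1 encodes a transcription factor that is activated when the sensor IRE1 splices its mRNA, and it enlarges the endoplasmic reticulum for antibody secretion. Derl3 encodes Derlin-3, which takes part in exporting misfolded proteins from the endoplasmic reticulum, and Mzb1 encodes an endoplasmic reticulum protein that helps antibody assembly. Jchain encodes the joining chain that links IgM and IgA units, and Sdc1 encodes syndecan-1 (CD138), the surface proteoglycan by which plasma cells are usually sorted. In bulk tissue, fewer cells of a type and less accessible DNA per cell cannot be told apart. Xbp1 and the other secretory genes are also used by other secretory cells, pancreatic acinar cells among them.

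The bulk peak lists held 47755 and 47864 peaks in +RV libraries and 32288 and 32736 in −RV libraries, and the lists carry no read totals, so depth was not used for them here. The single-cell sets held 13703580 fragments on the nuclear chromosomes from 18620 barcodes in +RV (median 667 fragments) and 1592372 from 2406 barcodes in −RV (median 633), and 2 barcodes occurred in both. Levels are counts of fragments in 1000000 nuclear fragments (CPM), with exact 95% Poisson intervals that cover counting error only.

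The promoters of 3 members mark the range of accessibility seen here: the strongest peak (Derl3), the promoter of the transcription factor Xbp1, and the promoter with no peak (Jchain). The sequences run up to the base before the RefSeq start on GRCm38.p6, at chr10:75893148-75893397 (plus strand) for Derl3, chr11:5520391-5520640 (plus strand) for Xbp1 and chr5:88527898-88528147 (minus strand) for Jchain. Capitals mark every match to 9 motifs searched on both strands. These were the endoplasmic reticulum stress element (CCAAT and then CCACG after 9 free bases), the XBP1-type core (CCACGT), the CCAAT box, the GC box (GGGCGG), the E-box of E proteins (CAGGTG), the octamer (ATGCAAAT), the PRDM1-type core (GAAAGT), the interferon response element (GAAA followed by GAAA after 2 free bases) and the ETS-IRF element (GGAA followed by GAAA after 2 free bases). The CCAAT box lies within the stress element.
Derl3: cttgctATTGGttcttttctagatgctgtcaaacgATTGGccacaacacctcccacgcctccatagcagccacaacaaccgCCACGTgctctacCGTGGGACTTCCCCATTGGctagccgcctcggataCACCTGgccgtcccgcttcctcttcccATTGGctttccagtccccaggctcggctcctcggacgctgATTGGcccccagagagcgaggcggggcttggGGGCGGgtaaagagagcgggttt
Xbp1: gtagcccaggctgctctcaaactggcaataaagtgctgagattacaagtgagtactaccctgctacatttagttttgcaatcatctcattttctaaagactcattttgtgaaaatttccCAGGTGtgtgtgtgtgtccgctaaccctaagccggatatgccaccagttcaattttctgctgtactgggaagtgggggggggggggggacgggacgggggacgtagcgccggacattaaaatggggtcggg
Jchain: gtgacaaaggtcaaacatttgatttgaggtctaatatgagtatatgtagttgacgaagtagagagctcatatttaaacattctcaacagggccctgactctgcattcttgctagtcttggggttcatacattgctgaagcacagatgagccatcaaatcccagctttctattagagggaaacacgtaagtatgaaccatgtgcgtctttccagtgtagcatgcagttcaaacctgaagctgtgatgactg

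Derl3 held a whole endoplasmic reticulum stress element on the minus strand, read as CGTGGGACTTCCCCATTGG, which 0.113% of 32851 RefSeq promoters of the same length (250 bases) hold. The CCAAT of that element is 1 of 5 CCAAT matches in this promoter, and CCAAT alone occurs in 33.9% of promoters. Derl3 also held CCACGT (6.91% of promoters), CAGGTG on the minus strand (17.2%) and GGGCGG (32.7%). In the bulk libraries the summit of the Derl3 peak lay 50 and 20 bp upstream of the stress element in +RV, against 2 bp downstream and 15 bp upstream of it in −RV. Xbp1 held CAGGTG alone, and Jchain held none of the 9 motifs. The summits of the Xbp1 peak lay downstream of the printed bases, at chr11:5520891 and 5520926 in +RV and 5520859 and 5520881 in −RV. The CAGGTG match lay outside both −RV peaks, which began at 5520603 and 5520556. Of the +RV peaks, the one that began at 5520515 touched only its last base, and the one that began at 5520497 covered it. Of the members not printed, Prdm1 held CAGGTG and CCAAT, Irf4 (243 bases searched) held GGGCGG, and Sdc1 (177 bases) held CCAAT and GGGCGG. The octamer (1.601% of promoters), the interferon response element (2.98%), the ETS-IRF element (2.301%) and GAAAGT (12.3%) were in none of the 6 sequences. GC content was 60.8% in Derl3, 50.4% in Xbp1 and 42.0% in Jchain, beside a median of 52.4% over all promoters. CpG numbered 16 in Derl3, 8 in Xbp1 and 3 in Jchain, with a median of 6 over all promoters. The table of promoters used here had no entry for Mzb1.

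The bulk libraries were first asked whether each promoter carried a called peak. In the +RV condition 6 of 7 members carried one in both libraries, beside 53.6% of all protein-coding genes. In the −RV condition 5 of 7 did, beside 47.7%. Mzb1 was the 1 member with a call in both libraries of +RV but none in −RV, a pattern found in 3.48% of all genes. No member showed the opposite pattern, which 0.0137% of genes did, and Jchain had no promoter peak in any library. Each peak has a fold, the height at its summit over local background as the peak caller gave it, and a rank by q value within its own list.

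Derl3 had the strongest promoter peak of the members. Its fold was 9.22 and 10.1 in +RV libraries, against 11.2 and 10.9 in −RV libraries. It ranked within the best 2.46% and 0.990% of peaks in +RV and the best 0.880% and 0.996% in −RV. Both +RV folds were below both −RV folds. Xbp1 showed the same order, with folds of 8.11 and 7.51 in +RV and 9.02 and 8.16 in −RV. The higher +RV and the lower −RV value of Xbp1 were close together, and its ranks lay between 6.85% and 9.13% in all 4 lists. Of 10404 genes with a promoter peak in all 4 libraries, 12.2% had both +RV folds below both −RV folds.

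Prdm1 and Sdc1 moved the other way. Prdm1 had folds of 7.44 and 7.03 in +RV, against 4.69 and 5.18 in −RV. Its peak ranked within the best 9.71% and 11.2% of the +RV lists and the best 35.2% and 27.2% of the −RV lists, so it stood higher in both +RV lists. Sdc1 had folds of 4.86 and 5.77 in +RV, against 3.99 and 4.17 in −RV. Sdc1 was the weakest member promoter called in all 4 libraries, ranked at 34.2% and 29.3% in +RV and 70.9% and 66.6% in −RV. Higher folds in both +RV libraries were found in 50.2% of the 10404 genes. Irf4 overlapped between conditions, with folds of 6.53 and 6.30 in +RV and 6.96 and 5.51 in −RV. With 2 libraries against 2, the smallest p an exact two-sided permutation test allows is 0.333, so none of these differences can pass a threshold of 0.05.

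The Mzb1 promoter peak was of middle to low rank. Its folds were 4.16 and 2.99 in the +RV libraries, at 35.3% and 67.2% of the list, with no peak in the −RV libraries. A separate peak inside the gene, 843 bp downstream of the start and in an intron, was called in all 4 libraries. That intronic peak had folds of 5.62 and 5.12 in +RV and 6.00 and 5.34 in −RV. With a window of 2000 bp either side of a TSS, which takes in the intronic peak, Mzb1 was called in both conditions.

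Promoter peaks were wider in +RV at every member called in all 4 libraries. The Sdc1 peak spanned 741 and 1091 bp in +RV, against 427 and 410 bp in −RV. The Irf4 peak spanned 638 and 779 bp in +RV, against 440 and 395 bp in −RV. For Derl3 the widths were 769 and 762 bp in +RV and 653 and 683 bp in −RV. In these 5 of 5 genes both +RV widths exceeded both −RV widths, as in 79.0% of the 10404 genes called in all 4. The opposite order, narrower in both +RV libraries, was found in 1.10% of those genes and in none of the members. The median width of those promoter peaks was 1036 and 1033 bp in +RV and 740 and 761 bp in −RV, so the members' peaks were narrower than the typical promoter peak in all but 2 instances (Sdc1 and Xbp1 in the second +RV library).

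**Figure D1:**
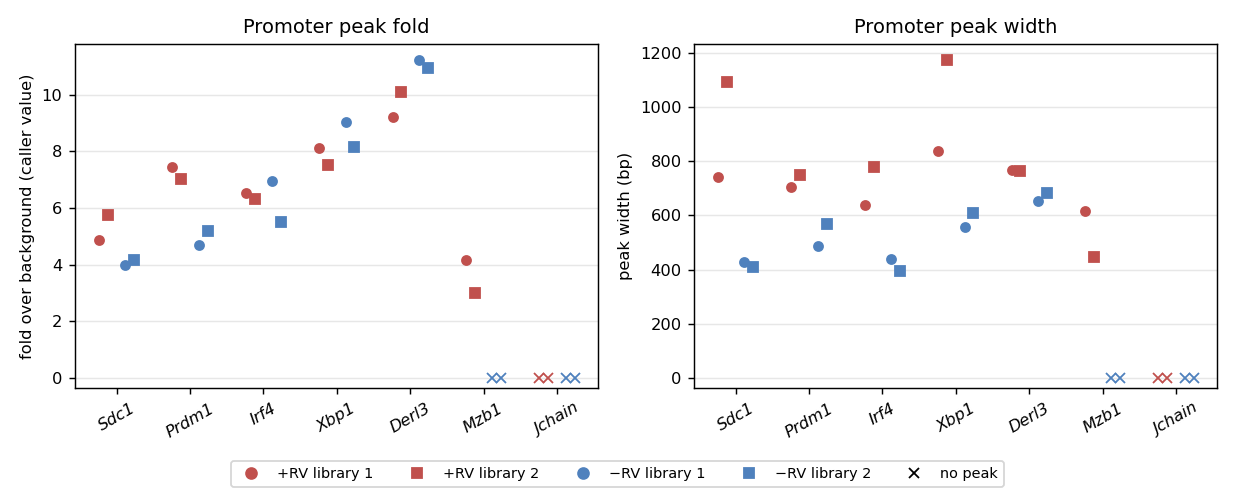
Fold over local background (left) and width in bp (right) of the promoter peak of each plasma cell gene in each bulk library, +RV left of −RV, with crosses at 0 where no peak was called. Derl3 and Xbp1 have the highest folds, all +RV widths of the 5 genes called in every library lie above the −RV widths, Mzb1 has a peak in +RV alone and Jchain has none.

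Beyond promoters, the peaks with a summit within 50 kb of a member TSS were counted. The 7 windows together held 51 and 45 peaks in +RV libraries, against 39 and 36 in −RV libraries. The means were 48.0 ± 4.24 in +RV and 37.5 ± 2.12 in −RV (SD, n = 2 each), a ratio of 1.28, with p = 0.333 by an exact two-sided permutation test, the smallest value possible. All peaks in the lists stood at a ratio of 1.47. When each list was cut to the same number of best-ranked peaks, the order turned round, with means of 34.5 in +RV and 37.5 in −RV. By gene, Derl3 had 10 and 11 peaks in +RV and 7 and 6 in −RV, and Mzb1 had 5 and 5 in +RV and 2 and 2 in −RV. These 2 of 7 members had more peaks in both +RV than in both −RV libraries, beside 32.8% of all genes, and no member had fewer, beside 1.34%. Irf4 had 9 and 9 peaks in +RV and 8 and 10 in −RV. Jchain had 8 and 8 in +RV and 8 and 7 in −RV. Xbp1 had 6 and 5 in each condition. Prdm1, with 9 and 6 in +RV and 7 and 4 in −RV, and Sdc1, with 4 and 1 in +RV and 1 and 2 in −RV, overlapped between conditions. Irf4 thus had as many peaks without reverse crosslinking as with it, while Sdc1 had few in either.

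Against other genes the members differed widely in how many peaks surrounded them. In +RV, the mean count of Derl3 exceeded that of 93.8% of all genes, Irf4 89.1%, Jchain 85.0%, Prdm1 82.6%, Xbp1 69.1%, Mzb1 64.8% and Sdc1 40.9%, where the median gene had 3. In −RV the median gene had 2, and Irf4 stood highest of the members, above 95.1% of genes.

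Merging overlapping peaks of the 4 libraries gave 56 regions. Of these, 29 were called in all 4 libraries, 4 in both +RV libraries alone, none in both −RV libraries alone, and 23 in other combinations. The 4 called in +RV alone were the Mzb1 promoter, the Prob1 promoter 5676 bp upstream of Mzb1, an intron of Slc23a1 at 29702 bp downstream of Mzb1, and a region between genes 39719 bp upstream of Derl3. By place, 27 regions lay between genes, 9 in promoters of other genes, 9 in introns of the member itself, 6 in its own promoter, 4 in introns of other genes and 1 in a member's exon. Regions outside promoters were placed by their strongest summit. Sdc1, Prdm1 and Irf4 had no other protein-coding TSS within 50 kb, whereas Derl3 had 6 such genes, Jchain and Mzb1 3 each and Xbp1 2.

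Around Irf4 a chain of regions was called in both conditions. The region at 17789 bp downstream overlaps the end of the gene, with its strongest summit just past that end. Of its 12 regions, 7 were called in all 4 libraries, at 20821 and 12351 bp upstream of the TSS, at the promoter, in an intron at 12348 bp, and at 17789, 37093 and 43301 bp downstream. The region at 37093 bp had the highest fold outside the promoter in 3 of the 4 libraries, with folds of 5.82 and 5.79 in +RV and 6.17 and 5.37 in −RV, where the intron at 12348 bp reached 5.41 in the second −RV library. Prdm1 had 9 regions, of which 4 were in all 4 libraries. Beside the promoter these were introns at 8927 and 10406 bp and a region between genes at 23988 bp downstream. The intron at 10406 bp had folds of 5.12 and 5.31 in +RV and 5.39 and 5.02 in −RV, so it did not share the higher +RV values of the Prdm1 promoter. Upstream of Xbp1, regions at 8108, 14605 and 34752 bp were called in all 4 libraries. Sdc1 had its promoter region alone in all 4, with 2 further regions in its introns that were not called in every library.

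Near Jchain the strongest regions belonged to neighbours. The promoter of Utp3, a gene for ribosome assembly, lies 26274 bp upstream of Jchain and had folds of 8.32 and 8.44 in +RV and 6.25 and 6.75 in −RV. The promoter of Rufy3 lies 37016 bp upstream. Regions between genes at 19229 bp downstream and 15102 bp upstream of Jchain were also called in all 4 libraries. The Jchain region 19229 bp downstream had folds of 5.58 and 5.33 in +RV and 4.83 and 5.26 in −RV. Jchain therefore had 7 or 8 peaks nearby in each library and none at its own start.

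**Figure D2:**
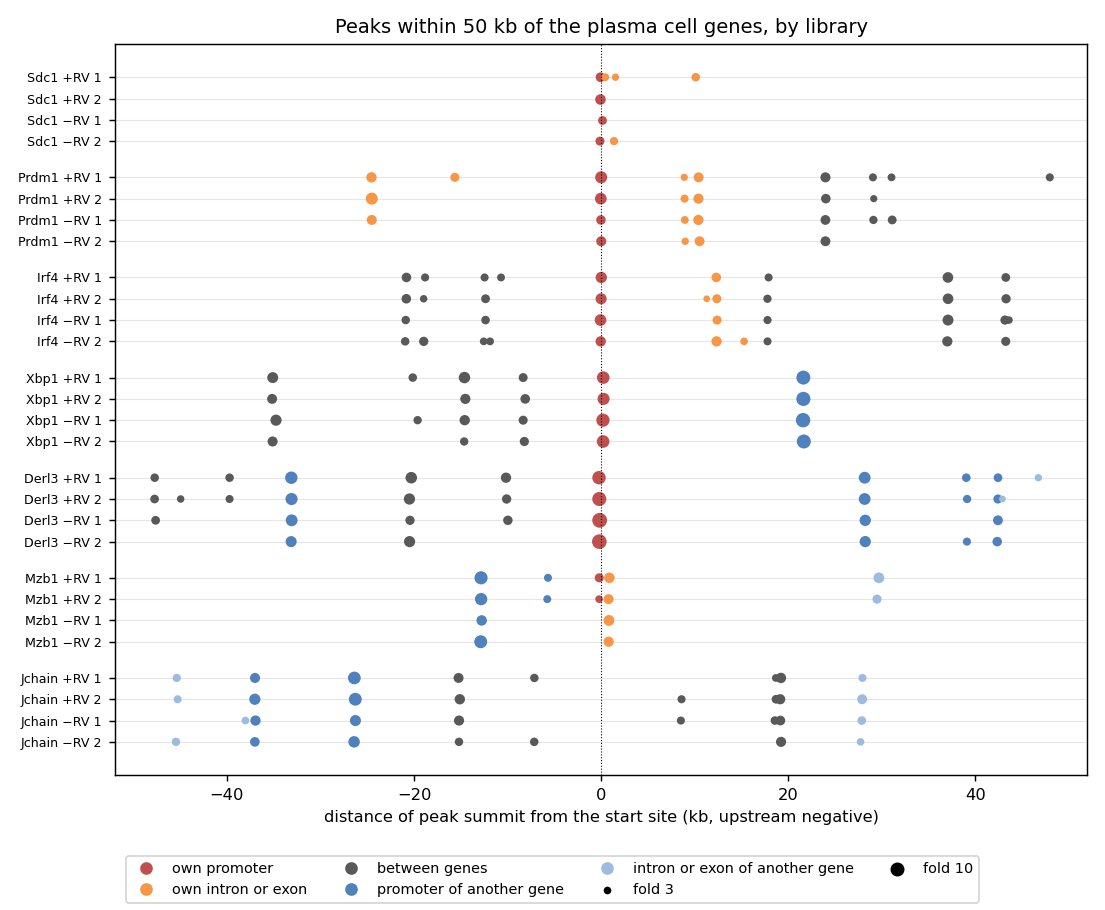
Each point is a peak, placed by the distance of its summit from the most upstream protein-coding TSS of the gene (kb, upstream negative), with 1 row per bulk library, +RV rows above −RV rows, point area proportional to fold and colour giving the place. The Irf4 row pattern recurs in all 4 libraries, Sdc1 has little beyond its promoter, and Jchain has regions on both sides but none at 0 kb.

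The single-cell fragments were then counted at the same promoters. Xbp1 had 237 fragments in +RV and 30 in −RV, or 17.3 CPM (15.2 to 19.6) in +RV and 18.8 CPM (12.7 to 26.9) in −RV. Derl3 had 230 fragments in +RV and 22 in −RV, or 16.8 CPM (14.7 to 19.1) in +RV and 13.8 CPM (8.66 to 20.9) in −RV. Prdm1 had 147 fragments in +RV and 13 in −RV, or 10.7 CPM (9.06 to 12.6) in +RV and 8.16 CPM (4.35 to 14.0) in −RV. These 3 were the highest of the members in both conditions. Irf4 had 103 fragments in +RV and 7 in −RV, or 7.52 CPM (6.13 to 9.12) in +RV and 4.40 CPM (1.77 to 9.06) in −RV. Sdc1 had 49 fragments in +RV (3.58 CPM) and 4 in −RV (2.51 CPM), and Mzb1 had 48 in +RV (3.50 CPM) and 3 in −RV (1.88 CPM). Jchain had 22 in +RV and 4 in −RV, or 1.605 CPM (1.01 to 2.43) in +RV and 2.51 CPM (0.684 to 6.43) in −RV. In +RV the intervals of neighbouring genes overlapped between Xbp1 and Derl3 and between Sdc1 and Mzb1, while Derl3, Prdm1, Irf4 and Sdc1 were separated from each other, apart from a slight overlap of Prdm1 and Irf4. In −RV only Xbp1 and Derl3 had intervals wholly above that of Jchain or of Sdc1.

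Over all genes the median promoter had 3.21 CPM in +RV and 2.51 CPM in −RV. In +RV, Xbp1 exceeded 87.5% of genes, Derl3 86.9%, Prdm1 73.4%, Irf4 63.5%, Sdc1 51.2%, Mzb1 51.0% and Jchain 42.6%. Promoter windows differ in length (2463 bp for Prdm1, 2205 bp for Xbp1 and 1201 to 1291 bp for the others), so these levels are per promoter. Per kb, Derl3 led with 191 fragments in +RV, ahead of Xbp1 with 108.

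**Figure D3:**
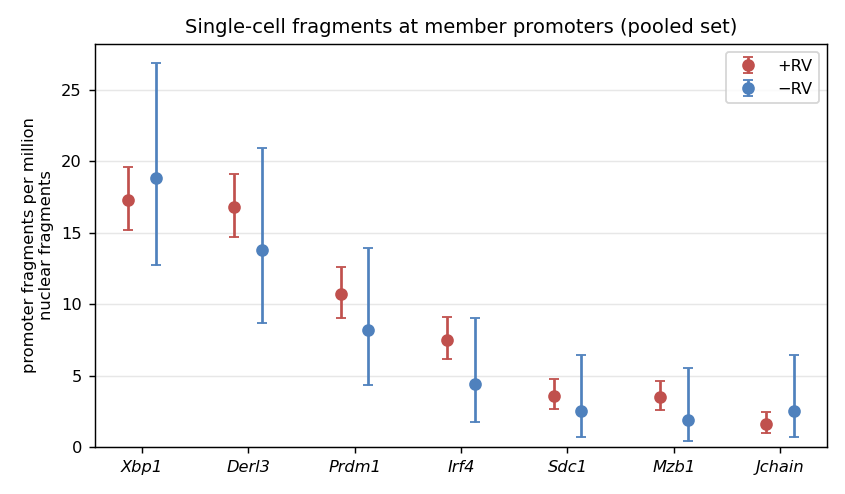
CPM at each member promoter in the pooled +RV set (left of each pair) and the pooled −RV set (right), with exact 95% Poisson intervals that cover counting error only. Xbp1 and Derl3 are highest, Jchain is lowest in +RV, and the intervals of the conditions overlap at every gene.

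Each promoter was set against its own surroundings, the bases within 50 kb that lie in no peak and no promoter. In +RV the Derl3 promoter held 20.2 times (17.3 to 23.3) as many fragments per kb as its surroundings, against 17.7 times (10.6 to 28.5) in −RV. Xbp1 stood at 12.4 times (10.7 to 14.4) in +RV and 12.0 times (7.75 to 18.2) in −RV. Irf4 stood at 7.19 in +RV and 7.33 in −RV, and Prdm1 at 7.07 in +RV and 7.19 in −RV. Sdc1 stood at 5.92 in +RV and 3.76 in −RV, with a lower bound of 1.00 in −RV. The Mzb1 promoter reached 5.65 times (4.12 to 7.58) in +RV and 2.76 times (0.557 to 8.34) in −RV. At 3 fragments in −RV, Mzb1 was not detectable above its surroundings at this depth. Jchain was the weakest, with 1.97 times (1.23 to 3.004) in +RV and 2.91 times (0.778 to 7.68) in −RV. The Jchain promoter without a bulk peak thus held more fragments per kb than its surroundings in the deeper +RV set. Those surroundings include a stretch, the 1 kb bins centred from -24.5 to -20.5 kb (upstream negative), with no fragment in either condition. It lowers their density, and the values without it were not computed. The deposited barcodes had been selected on their fraction of fragments at TSSs, which favours promoter windows. The part of that selection in these values was not tested, and the same comparison was not made over all genes.

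Between conditions, no member promoter had a ratio of +RV to −RV whose 95% interval excluded 1. The ratio over the 7 promoters together was 1.17 (0.933 to 1.49), with 61.0 CPM in +RV and 52.1 CPM in −RV, and the median over 12004 genes with at least 30 fragments was 1.16. Of the 6 members with at least 30 fragments, Irf4 (1.71) and Mzb1 (1.86) were over 1.5 times higher in +RV and none was over 1.5 times lower. With fragments of up to 100 bp alone both fell short of that fold, at 1.48 for Irf4 and 1.13 for Mzb1, on 6 and 3 fragments in −RV. Over all such genes 23.1% passed this fold upward and 4.11% downward.

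Wider windows held more fragments, and the highest ratio within 50 kb was that of Irf4, although its interval overlapped those of Prdm1 and Derl3. Within 50 kb of the TSS, Irf4 had 1499 fragments in +RV and 106 in −RV, or 109 CPM (104 to 115) in +RV and 66.6 CPM (54.5 to 80.5) in −RV, which gave a ratio of 1.64 (1.35 to 2.02). That ratio was higher than in 98.5% of 21386 genes with at least 30 fragments in their window, of which 2.66% were over 1.5 times higher in +RV and 1.49% over 1.5 times lower. The median ratio over those genes was 1.02. Over the Irf4 gene with 5 kb upstream, 533 fragments in +RV and 30 in −RV gave a ratio of 2.06 (1.43 to 3.09). The excess was not confined to peaks: outside all peaks and promoters, Irf4 had 81.1 CPM in +RV and 46.5 CPM in −RV, which gave a ratio of 1.74 (1.38 to 2.24). With fragments of up to 100 bp alone the Irf4 ratio was 1.46 (1.18 to 1.81). The bulk peaks around Irf4, by contrast, averaged 9.0 in each condition. Each single-cell condition is 1 pooled sample, so these intervals do not hold the spread between libraries.

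Prdm1 had 1118 fragments within 50 kb in +RV and 100 in −RV, which gave a ratio of 1.299 (1.06 to 1.61), and outside peaks a ratio of 1.33 (1.04 to 1.73). With barcodes of at least 1000 fragments alone the Prdm1 ratio was 0.981 (0.647 to 1.55), and at its promoter 0.495 (0.192 to 1.62), in place of 1.31, on 5 fragments in −RV. Derl3 had 1732 in +RV and 169 in −RV, which gave a ratio of 1.19 (1.02 to 1.40), but outside peaks the interval of its ratio included 1 (0.859 to 1.34), as did that with barcodes of at least 1000 fragments alone (0.738 to 1.44). The other ratios were 1.00 for Jchain, 0.948 for Xbp1, 0.905 for Sdc1 and 0.853 for Mzb1, each with an interval that included 1. Mzb1 therefore had a higher ratio at its promoter than over its surroundings, although the promoter interval (0.599 to 9.33) was too wide to separate them.

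**Figure D4:**
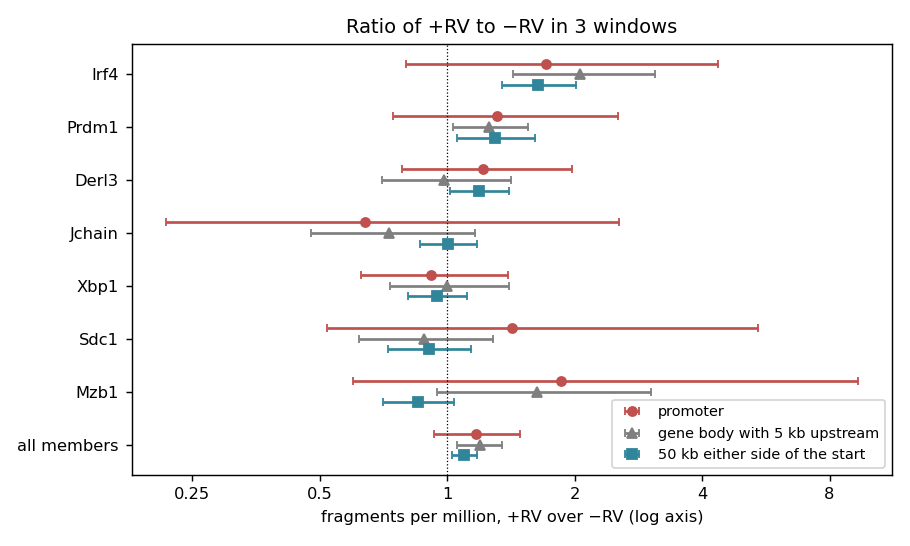
Ratio of CPM in +RV over −RV for each gene and for all 7 together in the promoter, over the gene with 5 kb upstream, and within 50 kb of the TSS, on a log axis with exact 95% intervals from counts. Irf4 has the highest ratio in each of the wider windows (2.06 over the gene and 1.64 within 50 kb), and all promoter intervals cross 1.

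Along the windows in +RV, the tallest 1 kb bin reached 15.25 CPM around Derl3 and 4.89 CPM around Irf4. Outside peaks and promoters, Derl3 had 9.49 fragments per kb in +RV and Irf4 11.9, the highest of the members. The bulk regions separated further by their single-cell counts. At the Derl3 promoter region, 218 fragments in +RV and 20 in −RV gave 20.01 CPM per kb in +RV and 15.8 in −RV, the densest of the 56 regions in both conditions. At the Irf4 region 17789 bp downstream, 40 fragments were found in +RV and 0 in −RV, where the interval of the ratio began at 1.20. At the Irf4 region 20821 bp upstream the counts were 33 in +RV and 0 in −RV, with an interval from 0.983. Both Irf4 regions were called as bulk peaks in all 4 libraries, with folds of 3.32 and 3.56 in +RV and 3.43 and 3.32 in −RV at 17789 bp. These 2 regions were singled out after their values were seen, among 56. The interval excluded 1 at 4 of the 56 regions, upward at the Irf4 region 17789 bp downstream and downward at the other 3, on 5 to 9 fragments in −RV. The lowest of these ratios was also near Irf4, at 11868 bp upstream, where 5 fragments in +RV and 5 in −RV gave 0.116 (0.0267 to 0.505). The Slc23a1 intron near Mzb1 had 19 fragments in +RV and 9 in −RV, which gave a ratio of 0.245 (0.106 to 0.616), although its bulk peak was called in +RV alone. The Prdm1 region 23988 bp downstream had 27 in +RV and 8 in −RV, which gave a ratio of 0.392 (0.173 to 0.999).

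**Figure D5:**
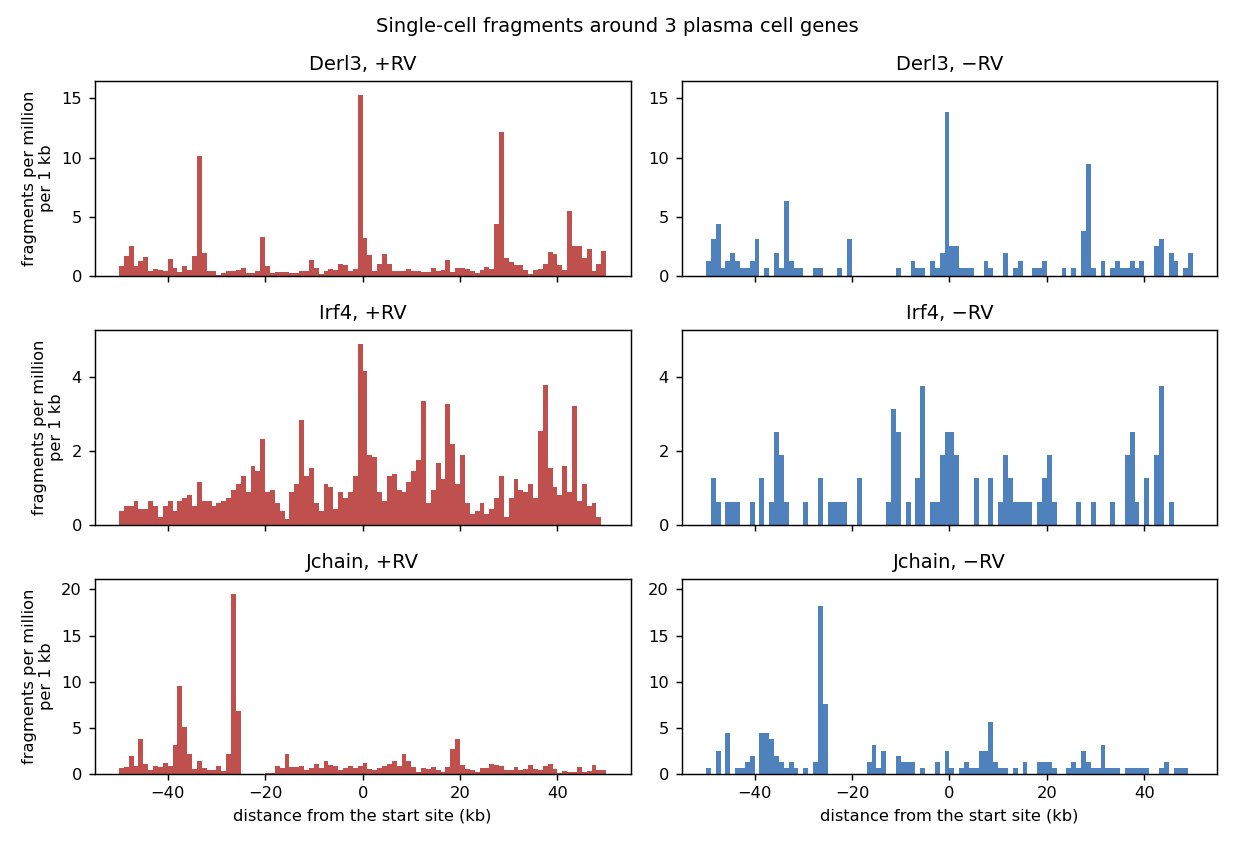
Single-cell CPM in bins of 1 kb around the TSS of Derl3, Irf4 and Jchain, with +RV in the left column and −RV in the right column on a shared vertical scale for each gene. Derl3 is highest at its own promoter, Jchain has its tallest bins at the Utp3 promoter 26 kb upstream and no tall bin at 0 kb, and the −RV panels are made of few fragments.

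Fragment length differed between conditions at these genes as it did elsewhere. Within 50 kb of the members, 22.6% (21.7 to 23.5) of fragments in +RV and 3.55% (2.47 to 4.93) in −RV were longer than 150 bp, with exact binomial intervals. Over all nuclear fragments the shares were 19.7% in +RV and 2.04% in −RV. At member promoters 209 of 836 fragments in +RV (interval 22.1% to 28.1%) and 5 of 83 in −RV (1.99% to 13.5%) were that long. Irf4 and Derl3 had the highest share of long fragments of the 50 kb windows in +RV, each 24.1%, and Prdm1 the lowest, 19.9%.

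Barcodes rarely held more than 1 fragment from these promoters. In +RV 784 of 18620 barcodes, 4.21% (3.93 to 4.51), had a fragment at any member promoter, against 80 of 2406, 3.33% (2.64 to 4.12), in −RV. Fragments at 2 or more members were found in 27 barcodes in +RV and 1 in −RV. No barcode had 3 or more, which at a limit of 3 counts allows a share of up to 0.0161% in +RV and 0.125% in −RV. Barcodes with a member fragment had medians of 719 fragments in +RV and 702 in −RV. At this depth no group of barcodes could be picked out as plasma cells by these genes, and none is named here.

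Plasma cells derive from B cells, so member fragments were compared between barcodes with and without a promoter fragment at 13 B cell genes. In +RV, 961 barcodes with such a fragment held 493 member fragments in 1000000 promoter fragments (372 to 640), against 424 (395 to 455) in the other barcodes, a ratio of 1.16 (0.869 to 1.52). In −RV the 85 such barcodes held 1 member fragment, against 82 in the others, a ratio of 0.313. In +RV the ratio for Mzb1 alone was 2.31 (0.803 to 5.46) and for Irf4 1.74 (0.807 to 3.34), and for Prdm1 0.688 (0.248 to 1.54). None of these intervals excluded 1. Over all 7 members and 7 marker lists, 1 of 49 intervals in +RV excluded 1, that of Xbp1 in barcodes with a macrophage gene fragment (1.845, 1.06 to 3.02). Mzb1 stood at 3.57 (0.931 to 9.80) for plasmacytoid dendritic cell genes, so its ratio was not highest for B cell genes. The same ratio over all members was 0.984 in +RV for T cell genes, 0.805 for erythroid, 1.04 for macrophage, 0.912 for plasmacytoid dendritic cell, 0.827 for endothelial and 1.05 for pancreatic acinar genes. The 7 ratios thus lay between 0.805 and 1.16. Of the 13 B cell genes, 13 were called in both libraries with reverse crosslinking and 11 without it, beside 53.6% and 47.7% of all genes. The same counts were 10 and 7 of 12 T cell genes and 10 and 5 of 11 erythroid genes. They were 7 and 5 of 12 macrophage, 6 and 4 of 6 plasmacytoid dendritic cell, and 7 and 1 of 10 endothelial genes. None of 8 acinar genes was called in both libraries of either condition. The acinar promoters nevertheless held fragments in single cells, with medians of 1.90 CPM in +RV and 3.45 CPM in −RV and up to 14.0 CPM in +RV and 26.4 in −RV at Cela1, the gene of a pancreatic elastase. The part of other secretory cells in the Xbp1 and Derl3 values was not tested.

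Other genes of the plasma cell programme were taken from a list of 20 (Tnfrsf17, Tnfrsf13b, Slamf7, Cd38, Cd27, Cd93, Cxcr4, Ell2, Pou2af1, Zbtb20, Bhlha15, Eaf2, Creb3l2, Fkbp11, Txndc5, Sec11c, Trp53inp1, Mcl1, Il6ra and Glcci1). With reverse crosslinking 17 were called in both libraries, beside 53.6% of all genes, and without it 14, beside 47.7%. None was called in +RV alone, beside 3.48% of all genes, or in −RV alone, beside 0.0137%. The 4 with most single-cell promoter fragments were Eaf2 (37.7 CPM in +RV, 40.8 in −RV), Ell2 (35.3 in +RV, 33.9 in −RV), which encodes an elongation factor that drives secretory antibody mRNA, Creb3l2 (31.7 in +RV, 33.3 in −RV) and Glcci1 (27.5 in +RV, 30.8 in −RV). Each of them exceeded every one of the 7 members in both conditions by this level, which is per promoter. For these 20 genes no values per kb were computed. Fkbp11 and Tnfrsf17, the gene of the plasma cell survival receptor BCMA, had no promoter peak in any library, as at Jchain, and held 1.97 and 1.46 CPM in +RV. The median ratio of +RV to −RV over the list was 1.04, beside 1.16 over all genes. Of the 19 with at least 30 fragments, 4 were over 1.5 times higher in +RV, beside 23.1% of all genes, and 1 over 1.5 times lower, beside 4.11%. That 1 gene was Bhlha15, a transcription factor gene of secretory cells, named after its values were seen, with 4.45 CPM in +RV and 8.79 CPM in −RV.

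The genes of protein folding and quality control in the endoplasmic reticulum, which XBP1 and its relatives serve, had a higher median promoter level than the members. These levels are per promoter, and values per kb were not computed for this list. Of 26 genes, 23 had promoter peaks in both libraries of each condition, beside 53.6% of all genes in +RV and 47.7% in −RV. Their median promoter level was 25.1 CPM in +RV and 23.2 CPM in −RV, beside 7.52 CPM in +RV and 4.40 CPM in −RV over the 7 members. Hsp90b1, an endoplasmic reticulum chaperone gene, had 46.8 CPM in +RV and 43.3 in −RV, followed in +RV by Ddit3 (38.3 in +RV, 30.8 in −RV), Manf (33.6 in +RV, 32.7 in −RV) and Sel1l (33.1 in +RV, 32.0 in −RV). The 3 genes without a call, Derl1, Hyou1 and Atf4, had 24.7, 21.2 and 17.9 CPM in +RV and yet no peak in any of the 4 lists. Over the whole table, 54 of 1896 genes above 20 CPM in +RV had no promoter peak in any list, and 1837 had one in all 4. The absence of a peak alone therefore does not show a closed promoter, and at Jchain the low fragment count stands beside it.

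Genes of the B cell programme that plasma cells switch off, or that act before it, were compared as a list of 12. With reverse crosslinking 11 were called in both libraries, beside 53.6% of all genes, and without it 9, beside 47.7%. The highest by CPM were Ets1 (16.3 in +RV, 8.16 in −RV), Mitf (11.9 in +RV, 19.5 in −RV), Irf8 (11.8 in +RV, 8.16 in −RV) and Bcl6, the germinal centre repressor that BLIMP1 opposes (11.6 in +RV, 7.54 in −RV). Of the 11 with at least 30 fragments, 7 were over 1.5 times higher in +RV, beside 23.1% of all genes, and 2 over 1.5 times lower, beside 4.11%, on 2 to 31 −RV fragments each. Among relatives of the members, Derl2 had promoter peaks in all 4 libraries. Its level per promoter was 28.4 CPM in +RV and 28.3 in −RV, above Derl3 (16.8 in +RV, 13.8 in −RV). Among the syndecans, Sdc4 was called in all 4 libraries, and Sdc2 and Sdc3 had calls in both libraries of +RV but none in −RV. That last pattern was found in 3.48% of all genes. Sdc2 had folds of 9.43 and 4.85 in +RV, and Sdc3 3.23 and 4.32.

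The protein-coding genes closest to each member called in all 4 libraries were found over 6 values, the log2 promoter CPM plus 1 in both single-cell sets and the log2 of 1 plus the promoter fold in the 4 bulk libraries. They were Atg4c and Brca2 for Prdm1, Tmem163 and Sim1 for Sdc1, Ttyh3 and Mapk14 for Xbp1, Zfp579 and Dscc1 for Irf4, and Zfp128 and Abl1 for Derl3. The Euclidean distances were between 0.128 (Prdm1 to Atg4c) and 0.271 (Irf4 to Dscc1) log2 units.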

How the data were processed

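Bulk and single-cell ATAC-seq of FFPE mouse spleen were analysed from deposited files, in groups taken from the sample descriptions. Each bulk library came with its own peak list on mm10, in the layout that MACS2 writes. As deposited, the score of a peak is 10 times its −log10 q value cut to a whole number, and the deposited fold is a ratio of summit height over local background. The deposited −log10 p and q values belong to a peak within its own library, and were used only to rank and filter. For the single-cell part, other values deposited by the authors are fragment positions and barcodes on mm10, pooled over replicates and selected at 500 fragments or more and on the fraction at TSSs. For single cells the study's methods describe BWA and MACS2 with removal of blacklisted regions, while Bowtie2 2.4, SAMtools 1.15, Picard 1.119 and SEACR 1.3 appear in the submitters' processing notes. The sources used here name no peak caller for the bulk lists.

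Genes were 21827 protein-coding genes of the GENCODE vM21 basic set, with promoters from 1000 bp upstream to 200 bp downstream of 41412 TSSs. Peaks touching a promoter by at least 1 bp were called, and nearby peaks were counted by summit. Fragments were counted by midpoint, and 0.717% (+RV) and 0.565% (−RV) repeated the position and barcode of another. Single-cell reads had been trimmed by the authors to a maximum length before mapping. Library sums were compared by exact two-sided permutation. Ratio intervals are exact conditional binomial intervals at 95%, and shares of 0 have an upper limit of 3 counts. The interval and window functions were tested on simulated data. Analyses used Python 3.11.15, NumPy 2.4.6, pandas 2.3.3, SciPy 1.17.1 and Matplotlib 3.10.9.

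The members and gene lists were chosen with earlier results of these data known. Named genes were the 7 members, list genes whose promoter call differed between conditions in both libraries, the 4 of each list with the highest +RV promoter CPM, and the 2 nearest genes of members called in all 4 libraries. Fkbp11, Tnfrsf17, Bhlha15, Derl1, Hyou1, Atf4 and Cela1 were named outside this rule, for their values. Neighbouring genes were named where a region near a member lay in them. Alternatives were a −log10 q of 5, equal numbers of peaks, other windows, a replicate block, leaving out each replicate, deeper barcodes, shorter fragments, unique positions, fragment ends and a stricter barcode rule. A window around the 5′ end of the gene record was added after the data were seen, since the record of Prdm1 starts far upstream of its protein-coding TSSs.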

Additional observations from a re-analysis of the deposited data

How the results depend on the processing

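The counts of member promoters called in both libraries stayed at 6 (+RV) and 5 (−RV) under every alternative except windows of 2000 bp either side of a TSS, where 6 were called in each condition and 0 in +RV alone. Without replicate 1 or replicate 2 the counts were 6 in +RV, 5 in −RV and 1 in +RV alone. The excess of peaks within 50 kb in +RV, 10.5 on average, turned to -3.0 with the same number of best-ranked peaks per library. Otherwise it lay between 5.5 (25 kb either side) and 11.5 (gene body and 50 kb), and between 9.0 and 12.0 without replicate 1 or replicate 2. With the replicate number as a block the excess was 10.5 again, with p = 0.5 by an exact sign-flip test, the smallest value 2 pairs allow, and it was run for this count alone. The window around the 5′ end of the gene record, chosen after seeing the data, kept the direction.

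With barcodes of at least 1000 fragments (3028 in +RV and 257 in −RV), the ratio of the member promoters together was 0.840 (0.531 to 1.40) in place of 1.17, and the 50 kb ratio of Prdm1 was 0.981 in place of 1.299, while that of Irf4 was 2.14 (1.26 to 3.95). The promoter ratios of Jchain and Mzb1 could not be given there, since −RV held no fragment. With at least 2 fragments at B cell genes, the ratio of member fragments in such barcodes was 0.450 in +RV and 0.0 in −RV, on 76 and 9 barcodes with 2 and 0 member fragments. The cause of these changes was not tested, and the last rest on few fragments. The −RV single-cell set, with 3 to 30 fragments at a member promoter, limits every ratio between conditions, and the intervals hold counting error only.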
